A study of Mus musculus with 12 samples.

Results

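Expression of 74 genes for chromatin modifiers and remodelers was examined, of 12394 genes measured on arrays of mouse hippocampal CA1 tissue. The genes were chosen by name: the single gene symbol of a probe set had to be Kdm, Kmt, Hdac, Sirt, Chd, Cbx, Dnmt, Ezh, Setd or Kat followed by a digit, or had to begin with Smarc. The rule itself used no measured value, but it was chosen with earlier results of these data known. The families held 13 Kdm, 12 Smarc, 8 Hdac, 7 Cbx, 7 Kmt, 6 Chd, 5 Kat, 5 Setd, 5 Sirt, 4 Dnmt and 2 Ezh genes. No filter on low values was applied, so that all 74 genes were tested. The symbols name protein families, and some members, such as the mitochondrial sirtuins and Setd3, act on substrates other than chromatin.

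The 4 groups of 3 arrays were SUMO-KD mice after ischemia, SUMO-KD mice after sham surgery, wild-type mice after ischemia and wild-type mice after sham surgery. SUMO-KD names a transgenic mouse with a knockdown of SUMO, a small protein that is attached to other proteins and to many chromatin factors. Ischemia was 10 min of interrupted blood flow to the whole forebrain followed by 3 h of reperfusion, after which CA1 was dissected. One sample pooled CA1 of 2 brains, and the numbered samples of a group are called biological replicates without mention of litter or surgery day. The promoter of the transgene, the strain, the sex and the age of the mice are not given in the sources used here.

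DNA in the nucleus is wound around histones, and chromatin proteins write, erase or read chemical marks on histones and DNA or move the histones along the DNA. Kat, Kmt, Setd, Ezh and Dnmt enzymes add acetyl or methyl groups, Hdac, Sirt and Kdm enzymes remove them, Cbx proteins bind methylated histones, and Chd and Smarc proteins include the ATP-driven motors that move nucleosomes. CA1 pyramidal neurons are known to die some days after such ischemia, and histone acetylation and REST-dependent repression are known to change in them.

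The deposited values were linear array intensities, and tests were run with limma on log2(intensity + 32), with p-values adjusted over all 12394 genes by the Benjamini-Hochberg method. Genes with an adjusted p under 0.05 are called higher or lower. Log2 changes below are on that scale, which understates the change of dim genes, and are given with the standard error of the fit. Median intensity was 141 to 162 per array. Sumo3, the one SUMO gene used as a check of the knockdown, averaged 1908 ± 28.3 in SUMO-KD mice after ischemia and 1560.2 ± 194 after sham surgery, and 3399.8 ± 139.9 in wild-type mice after ischemia and 2343 ± 113 after sham surgery (SD, n = 3 each). It was lower in SUMO-KD than in wild-type samples after ischemia (log2 change -0.82, adjusted p = 0.00151) and after sham surgery (-0.58, adjusted p = 0.0096). Without probe sets marked as shared between transcripts these differences were -0.10 (adjusted p = 0.704) after ischemia and 0.05 (adjusted p = 0.885) after sham surgery, where the call was also lost with averaged probe sets (-0.27, adjusted p = 0.159). An 18S ribosomal RNA control was lower in 5 of the 6 ischemia arrays, at 2829 to 4127, than in the sham arrays, at 5087 to 7569; SUMO-KD ischemia replicate 2 had 6316.

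Of 7 listed CA1 pyramidal markers, Wfs1, Pou3f1 and Crym were measured. Their summed intensity was 3603.5 to 4745.5 in SUMO-KD mice after ischemia and 3780.6 to 4549.4 after sham surgery. In wild-type mice it was 3329.6 to 4986 after ischemia and 5975 to 7860.9 after sham surgery. With ischemia 2 of these 3 genes fell in wild-type and 0 in SUMO-KD samples. After sham surgery 1 of the 3 was called lower in SUMO-KD than in wild-type mice. Summed over 7 of 7 microglial markers, the level was 4093.5 to 4505.5 in SUMO-KD ischemia and 5409.9 to 5705.8 in SUMO-KD sham samples, and 4128 to 4449.3 in wild-type ischemia and 5256.9 to 5781.4 in wild-type sham samples. In each genotype 4 of the 7 microglial markers fell, as did 2 of 5 measured endothelial markers. Of 6 dentate granule cell markers 4 were measured, with sums of 1803.7 to 2219.8 in SUMO-KD mice after ischemia and 3107.9 to 4326 after sham surgery, and 1870 to 2022.9 in wild-type mice after ischemia and 2288.6 to 3806.7 after sham surgery. For the mean response 3 of these 4 were called lower and 1 higher. Of 6 interneuron markers 3 fell in wild-type and 0 in SUMO-KD samples, with sums of 11507.7 to 13779.8 in SUMO-KD mice after ischemia and 11740.7 to 12138.8 after sham surgery, and 10078.3 to 13230.1 in wild-type mice after ischemia and 12443.5 to 13242.4 after sham surgery. After sham surgery 2 of 6 astrocyte markers were higher in SUMO-KD than in wild-type mice, with sums of 12323.9 to 14156.3 in SUMO-KD and 10078.6 to 11751.7 in wild-type mice. Of 5 neutrophil markers 4 were measured, mostly dim, with sums of 227 to 1292.2 in SUMO-KD ischemia and 67.2 to 144.1 in SUMO-KD sham samples. In wild-type mice the sums were 235.9 to 279.2 after ischemia and 96.3 to 275.2 after sham surgery. For the mean response 2 of these 4 were called higher. No deposited value was 0. The part of these shifts and of the 18S difference in the results below was not tested, and in such bulk tissue fewer cells of a type and less RNA per cell cannot be told apart.

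After ischemia, SUMO-KD samples had 2 chromatin genes called higher and 7 called lower than sham, and wild-type samples had 7 called higher and 12 called lower. The called share was 12.2% of the 74 genes in SUMO-KD and 25.7% in wild-type samples. Over all genes it was 10.7% in SUMO-KD and 18.5% in wild-type samples. In SUMO-KD samples 6.08% of all genes were called higher and 4.62% lower, and in wild-type samples 9.59% and 8.88%. The share in SUMO-KD samples was thus near that of all genes. With the probe sets of a gene averaged, 4 chromatin genes were called higher and 2 lower in SUMO-KD samples and 8 higher and 7 lower in wild-type samples, so the excess of lower calls depended on the choice of probe set. Over all genes averaging gave 740 higher and 499 lower in SUMO-KD and 1201 and 1004 in wild-type samples. The median log2 change of the 74 genes was -0.10 in SUMO-KD samples (all genes, -0.02) and -0.04 in wild-type samples (all genes, -0.04). The median size of the change without its sign was 0.21 in SUMO-KD samples (all genes, 0.16) and 0.22 in wild-type samples (all genes, 0.19). The difference between the genotypes in the number of calls was not tested, and the fit of the difference of responses called 0 of the 74 genes.

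Chd1, Cbx1, Cbx5, Dnmt1, Kmt5b, Sirt4 and Smarca4 were called in both genotypes, each in the same direction in both. Another 2 genes were called in SUMO-KD samples alone and 12 in wild-type samples alone. Averaging the response over the genotypes, 10 genes were called higher and 18 lower, 37.8% of the 74 against 26.7% of all genes. The higher calls were 13.5% of the 74 genes (all genes, 12.8%) and the lower calls 24.3% (all genes, 14%). Averaged probe sets gave 11 higher and 13 lower for this response (all genes, 1619 and 1579). Without shared probe sets 10 were higher and 13 lower, of 61 genes (all genes, 1307 and 1335). A total of 45 genes were called neither in a genotype nor for the mean response. The intensities on the 3 arrays of ischemia and sham did not overlap for 13 higher and 24 lower genes in SUMO-KD samples and for 12 higher and 23 lower genes in wild-type samples. Over all genes the shares without overlap were 13.9% higher and 15.9% lower in SUMO-KD and 15.6% higher and 19.5% lower in wild-type samples. In 22 genes the groups stood apart in the same direction in both genotypes, 16 lower and 6 higher of the 74, where 9.09% of all genes were apart and lower in both and 8.92% apart and higher in both. In 0 of the 74 genes they stood apart in opposite directions.

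**Figure D1:**
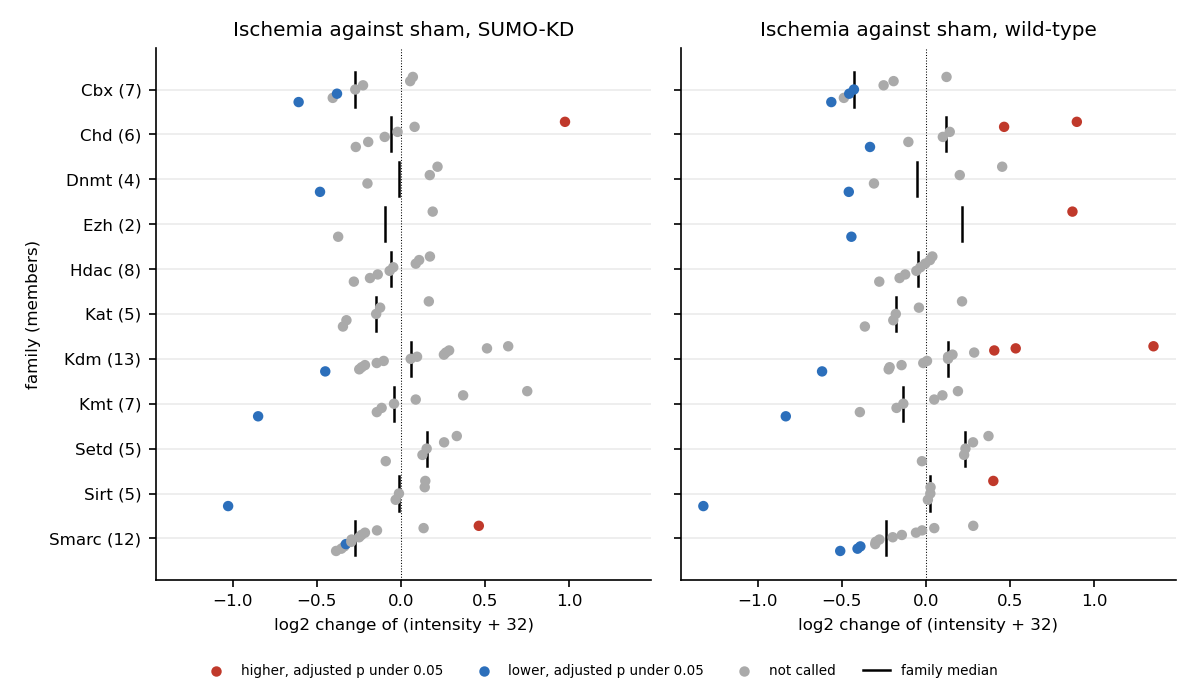
Log2 change of (intensity + 32) with ischemia for each of the 74 genes, by family, in SUMO-KD (left) and wild-type samples (right). Red points were called higher, blue points called lower, grey points not called, and the black line is the family median. Cbx and Smarc genes lie mostly below 0 in both panels, with median changes of -0.27 and -0.27 in SUMO-KD and -0.43 and -0.24 in wild-type samples, while Setd genes lie mostly above it.

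Promoter sequences are shown for 4 genes whose ischemia response is described below: the demethylase Kdm7a, the methyltransferases Ezh2 and Dnmt1, and the deacylase Sirt4. Each window runs from 250 bases before the start of the transcript to 50 bases after it, on the minus strand of RefSeq's GRCm38.p6 annotation, and base 1 is the first base of the transcript. Capitals mark matches to the motifs searched on both strands. Entries of this kind existed for 63 of the 74 genes, with 90 windows in all; none was found for Chd1 or Kdm5a.
Kdm7a, chr6:39206724-39207023: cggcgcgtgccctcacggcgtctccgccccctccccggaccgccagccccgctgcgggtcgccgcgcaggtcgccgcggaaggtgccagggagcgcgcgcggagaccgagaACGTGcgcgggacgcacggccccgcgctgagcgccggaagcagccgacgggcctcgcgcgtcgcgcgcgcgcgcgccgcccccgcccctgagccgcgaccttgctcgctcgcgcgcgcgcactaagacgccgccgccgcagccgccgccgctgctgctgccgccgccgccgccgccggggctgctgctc
Ezh2, chr6:47594981-47595280: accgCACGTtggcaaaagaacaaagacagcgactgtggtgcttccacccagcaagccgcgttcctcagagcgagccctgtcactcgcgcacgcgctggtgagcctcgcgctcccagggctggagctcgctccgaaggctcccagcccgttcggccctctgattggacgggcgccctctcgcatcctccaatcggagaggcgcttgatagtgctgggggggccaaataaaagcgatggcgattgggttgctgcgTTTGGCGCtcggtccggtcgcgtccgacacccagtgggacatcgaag
Sirt4, chr5:115484248-115484547: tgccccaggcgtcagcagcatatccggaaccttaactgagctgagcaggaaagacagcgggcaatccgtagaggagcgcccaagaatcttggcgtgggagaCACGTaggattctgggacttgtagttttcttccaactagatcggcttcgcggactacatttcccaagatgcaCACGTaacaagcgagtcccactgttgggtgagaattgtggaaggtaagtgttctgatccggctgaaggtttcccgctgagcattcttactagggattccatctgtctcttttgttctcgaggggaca
Dnmt1, chr9:20952574-20952873: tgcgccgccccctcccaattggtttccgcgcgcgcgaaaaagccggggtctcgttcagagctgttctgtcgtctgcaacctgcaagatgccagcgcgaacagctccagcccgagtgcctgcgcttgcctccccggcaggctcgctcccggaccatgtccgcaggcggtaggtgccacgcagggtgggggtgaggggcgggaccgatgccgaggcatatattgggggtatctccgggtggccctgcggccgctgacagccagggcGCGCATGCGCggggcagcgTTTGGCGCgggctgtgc

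The Kdm7a window was 82.67% G or C with 65 CpG sites, and a hypoxia response core (ACGTG) began at -139. The Ezh2 window was 64.33% G or C with 31 CpG sites, with that core at -246 and an E2F site (TTTGGCGC) at 4. In the Sirt4 window, 52.0% G or C with 15 CpG sites, the core began at -149 and -77. The Dnmt1 window, 1 of 3 for that gene, was 69.67% G or C with 33 CpG sites and held an NRF1 site at 15 and an E2F site at 34. Genes that rose and genes that fell thus both carried the hypoxia core and the E2F letters. Over the 63 genes the core was present in 30.2% (all genes with a window, 26.9%), the E2F site in 3 genes or 4.76% (all, 0.98%), and the NRF1 site in 1 gene or 1.59% (all, 1.82%). An AP-1 site (TGANTCA) was present in 7 genes or 11.1% (all, 7.69%), and a cAMP response element (TGACGTCA) in 1 gene, Cbx8, or 1.59% (all, 3.00%). A heat shock element pair (GAANNTTC) was present in 5 genes or 7.94% (all, 7.56%) and an ETS site (CCGGAAGT) in 3 genes or 4.76% (all, 7.23%). A run of letters is a description of the window and not a binding site. The median window of the chromatin genes was 62.7% G or C with 24 CpG sites, against 59.0% and 17 for all 9883 genes with a window.

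Among the 13 Kdm genes, 0 were called higher and 1 lower with ischemia in SUMO-KD samples, and 3 higher and 1 lower in wild-type samples. Kdm7a, which removes repressive methyl groups from H3K9 and H3K27, had intensities of 40.5, 100.5 and 82.3 in SUMO-KD ischemia and 44.9, 28.7 and 30.5 in SUMO-KD sham samples. It had 151, 132 and 164 in wild-type ischemia and 41.9, 46.7 and 28.5 in wild-type sham samples. The wild-type ischemia arrays were all above every other array, while 1 of the SUMO-KD ischemia arrays lay within the range of SUMO-KD sham. The log2 change with ischemia was 0.64 ± 0.20 in SUMO-KD (adjusted p = 0.0632) and 1.35 ± 0.20 in wild-type samples (adjusted p = 0.000836). In wild-type samples this was the widest rise of the 74 genes.

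Kdm5a, an eraser of the active mark H3K4 methylation, had 420.5, 595 and 397 in SUMO-KD ischemia and 280.1, 355 and 315 in SUMO-KD sham samples. It had 463, 584 and 435 in wild-type ischemia and 337, 332 and 317 in wild-type sham samples. Ischemia arrays exceeded sham arrays in both genotypes without overlap. The log2 change was 0.51 ± 0.15 in SUMO-KD (adjusted p = 0.0534) and 0.53 ± 0.15 in wild-type samples (adjusted p = 0.0306), so that near-equal changes fell on either side of the threshold. The wild-type call was lost, at adjusted p of 0.0566 to 0.102, on omission of any of wild-type sham replicates 1, 2 and 3 or wild-type ischemia replicates 1 and 2. The mean response of 0.52 (adjusted p = 0.00389) remained called on omission of any 1 of the 12 arrays.

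Kdm3a, an H3K9 demethylase and a known hypoxia-induced gene, changed by 0.27 ± 0.12 in SUMO-KD (adjusted p = 0.203) and rose by 0.41 ± 0.12 in wild-type samples (adjusted p = 0.0369). The groups did not overlap in either genotype, at 677 to 725 in SUMO-KD ischemia against 535 to 673 in SUMO-KD sham, and 669.6 to 902 in wild-type ischemia against 538 to 623 in wild-type sham samples. Its wild-type call was lost without wild-type sham replicate 1 or 3, wild-type ischemia replicate 1 or 3 or SUMO-KD ischemia replicate 3 (adjusted p of 0.0522 to 0.132), and with arrays centred on their medians (0.35, adjusted p = 0.0904). Kdm4b, which acts on H3K9, changed by -0.25 ± 0.12 in SUMO-KD (adjusted p = 0.253) and fell by 0.62 ± 0.12 on the log2 scale in wild-type samples (adjusted p = 0.00552). It averaged 229 ± 33.3 in SUMO-KD ischemia and 277 ± 23.9 in SUMO-KD sham samples (SD, n = 3 each), whose arrays overlapped. Its arrays read 257, 213 and 184 in wild-type ischemia and 357, 337 and 353 in wild-type sham samples, which did not overlap. Kdm5d, the Y-linked relative of Kdm5a, was lower in SUMO-KD samples, with 195, 183 and 179 after ischemia and 233, 295 and 272 after sham surgery (-0.45 ± 0.11, adjusted p = 0.0282). In wild-type samples its change was -0.14 ± 0.11 (adjusted p = 0.44), with overlapping groups. The call in SUMO-KD samples was lost on omission of replicate 2 or 3 of either SUMO-KD group (adjusted p of 0.0826 to 0.105), and with the mean of the gene's probe sets (-0.08, adjusted p = 0.805). Kdm2b, which joins CpG-rich DNA to a Polycomb complex, was called for the mean response alone (-0.22, adjusted p = 0.0143).

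**Figure D2:**
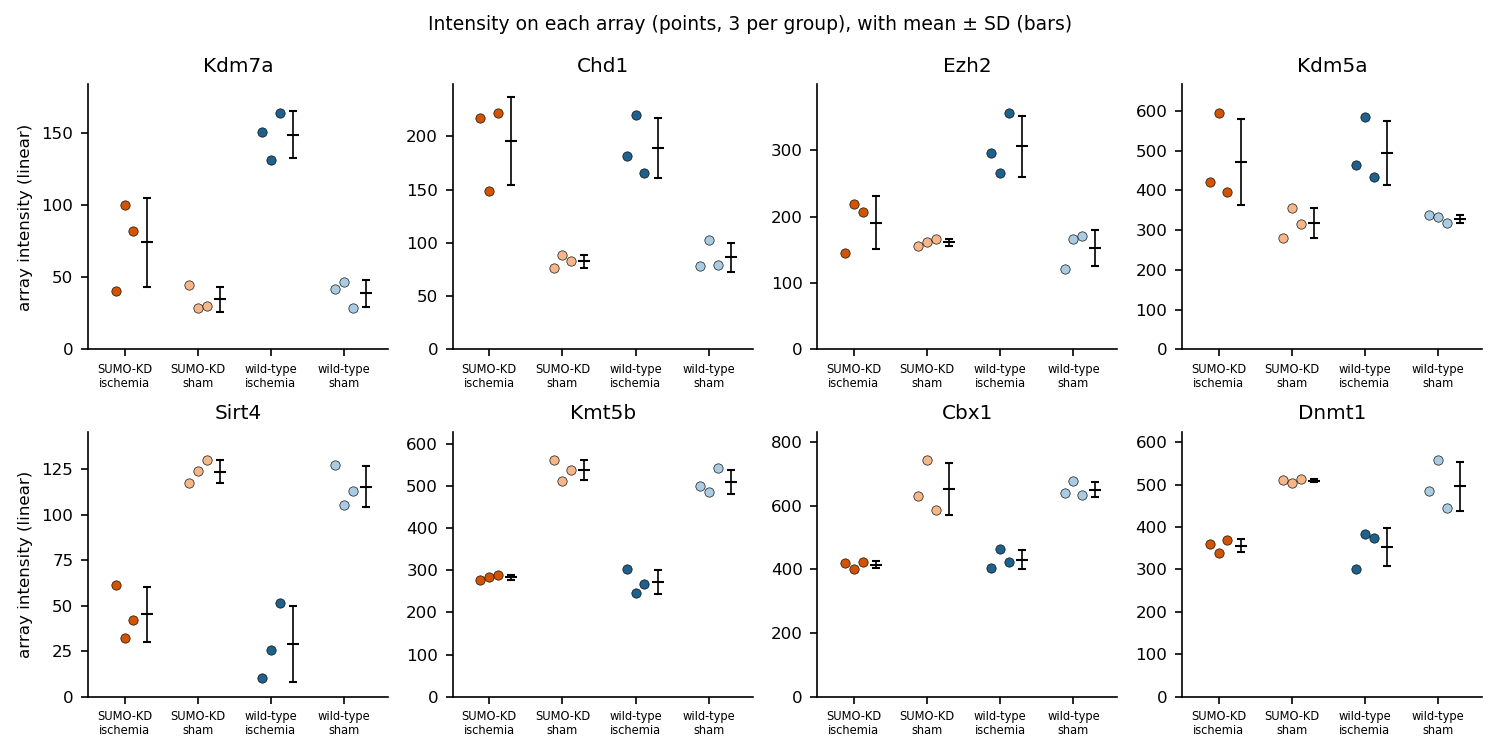
Linear array intensity of 8 chromatin genes on each array (points, 3 per group), with the mean and SD (bars), for SUMO-KD ischemia, SUMO-KD sham, wild-type ischemia and wild-type sham samples. Chd1, Kdm5a, Sirt4, Kmt5b, Cbx1 and Dnmt1 separate ischemia from sham in both genotypes, while Kdm7a and Ezh2 do so in wild-type samples and overlap in SUMO-KD samples.

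Ezh2, the catalytic subunit of Polycomb repressive complex 2, which methylates H3K27, rose in wild-type samples. It had 146, 219 and 208 in SUMO-KD ischemia and 155, 162 and 166 in SUMO-KD sham samples, and 296, 266 and 356 in wild-type ischemia and 121, 166 and 171 in wild-type sham samples. The wild-type ischemia arrays stood above all other arrays, and the SUMO-KD groups overlapped. The log2 change was 0.19 ± 0.15 in SUMO-KD (adjusted p = 0.521) and 0.87 ± 0.15 in wild-type samples (adjusted p = 0.00254). Ezh1, the alternative catalytic subunit that prevails in non-dividing cells, was lower after ischemia. It had 586, 459 and 643 in SUMO-KD ischemia and 713, 715 and 768 in SUMO-KD sham samples (-0.37 ± 0.13, adjusted p = 0.0997), and 569, 616 and 616 in wild-type ischemia and 955, 702 and 842 in wild-type sham samples (-0.44 ± 0.13, adjusted p = 0.037). Ischemia arrays of Ezh1 were below sham arrays in both genotypes without overlap. Its wild-type call was lost, at adjusted p of 0.051 to 0.139, without wild-type sham replicate 1 or 3, without any 1 of the wild-type ischemia arrays, and without SUMO-KD sham replicate 2.

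Kmt5b, which methylates H4K20, had the smallest adjusted p of the 74 genes in both genotypes. It had 277, 284 and 289 in SUMO-KD ischemia and 561, 512 and 538 in SUMO-KD sham samples. It had 303, 245 and 268 in wild-type ischemia and 500.3, 485 and 541 in wild-type sham samples. Every ischemia array lay far below every sham array. Kmt5b changed by -0.85 ± 0.09 in SUMO-KD (adjusted p = 0.000129) and -0.83 ± 0.09 in wild-type samples (adjusted p = 0.000108). A second probe set of this gene rose, as described with the other probe sets below. The other Kmt genes were not called in either genotype. Kmt2a, an H3K4 methyltransferase needed for long-term memory in mice, was called for the mean response (0.28, adjusted p = 0.0198) and lost that call without wild-type sham replicate 1 (adjusted p = 0.0508). With the probe sets used, 0 of the 5 Setd genes were called in a genotype. Setd1a, another H3K4 methyltransferase, was called for the mean response (0.35, adjusted p = 0.013), with ischemia arrays above sham arrays in both genotypes.

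Of the 4 DNA methyltransferases, Dnmt1, which copies methylation onto newly made DNA, fell in both genotypes. Its arrays read 360.1, 339.5 and 368 in SUMO-KD ischemia and 512, 505 and 512 in SUMO-KD sham samples, and 301, 383 and 373 in wild-type ischemia and 484, 558 and 446 in wild-type sham samples. No ischemia array reached a sham array. Its log2 change was -0.48 ± 0.11 in SUMO-KD (adjusted p = 0.0139) and -0.46 ± 0.11 in wild-type samples (adjusted p = 0.0117). The SUMO-KD call was lost without SUMO-KD ischemia replicate 2 (adjusted p = 0.0574) and the wild-type call with the compared groups alone (adjusted p = 0.062). Dnmt3a, which sets methylation on unmethylated DNA in neurons, was not called with the probe set used, at 0.22 in SUMO-KD (adjusted p = 0.508) and 0.45 in wild-type samples (adjusted p = 0.0934). Its other probe sets are described below. Dnmt3b and Dnmt3l were dim and were not called.

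With the probe sets used, none of the 8 Hdac and 5 Kat genes was called with ischemia in either genotype. Their log2 changes ran from -0.28 to 0.17 for Hdac and from -0.35 to 0.17 for Kat genes in SUMO-KD samples, and from -0.28 to 0.04 and -0.36 to 0.22 in wild-type samples. Hdac5, a deacetylase that shuttles between nucleus and cytoplasm with neuronal activity, was called lower for the mean response (-0.23, adjusted p = 0.0325). Kat7, an acetyltransferase of H3 and H4, was called higher for it (0.19, adjusted p = 0.0386). The Hdac5 call was lost, at adjusted p of 0.052 to 0.0767, in 8 of 12 omissions of an array: replicates 2 and 3 of SUMO-KD ischemia, 1 and 2 of SUMO-KD sham, 1 and 2 of wild-type ischemia and 1 and 3 of wild-type sham. The Kat7 call was lost, at 0.0531 to 0.0918, in 9 of 12: replicates 2 and 3 of SUMO-KD ischemia, 1 and 3 of SUMO-KD sham, 1 and 3 of wild-type ischemia and every wild-type sham array. It was also lost with averaged probe sets (0.17, adjusted p = 0.134) and with arrays centred on their medians (0.15, adjusted p = 0.143).

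The sirtuins are NAD-dependent deacylases, and 2 of the 5 were called. Sirt4, a mitochondrial member known to act on metabolic enzymes, had 61.6, 32 and 42.0 in SUMO-KD ischemia and 117, 124 and 129.9 in SUMO-KD sham samples. It had 10.3, 25.4 and 51.4 in wild-type ischemia and 127, 105 and 113 in wild-type sham samples. Ischemia arrays were all below sham arrays, and the lowest of them were under the offset of 32. The log2 change was -1.03 ± 0.21 in SUMO-KD (adjusted p = 0.00902) and -1.32 ± 0.21 in wild-type samples (adjusted p = 0.00129), the widest fall of the 74 genes in each. Sirt1, a nuclear deacetylase of histones and transcription factors, had 403, 424 and 432 in SUMO-KD ischemia and 372, 398 and 363 in SUMO-KD sham samples, and 555, 477 and 508 in wild-type ischemia and 404, 386 and 352 in wild-type sham samples. Ischemia stood above sham in both genotypes, by 0.14 ± 0.09 in SUMO-KD (adjusted p = 0.365) and 0.40 ± 0.09 in wild-type samples (adjusted p = 0.00785). The changes of Sirt2, Sirt3 and Sirt7 were not called.

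Of the 7 Cbx genes, which encode readers of methylated histones, 2 fell in SUMO-KD and 3 fell in wild-type samples, and 0 rose. Cbx1, the heterochromatin protein HP1 beta, had 419, 402 and 424 in SUMO-KD ischemia and 629, 743 and 587 in SUMO-KD sham samples. It had 405, 463 and 422 in wild-type ischemia and 639, 677 and 634 in wild-type sham samples. All ischemia arrays lay below all sham arrays. Cbx1 changed by -0.61 ± 0.10 in SUMO-KD (adjusted p = 0.002) and -0.56 ± 0.10 in wild-type samples (adjusted p = 0.00206). The Cbx1 call was lost in both genotypes with the mean of its probe sets (-0.34 in SUMO-KD, adjusted p = 0.0665, and -0.31 in wild-type, adjusted p = 0.0636). Without probe sets marked as shared it was also lost (0.02, adjusted p = 0.983, in SUMO-KD and -0.49, adjusted p = 0.283, in wild-type samples). Cbx5, HP1 alpha, read 1691, 1483 and 1768 in SUMO-KD ischemia and 2235, 1892 and 2347 in SUMO-KD sham samples. It read 1308, 1471 and 1478 in wild-type ischemia and 2070.0, 1884 and 1918 in wild-type sham samples. Cbx5 was lower after ischemia on every array of both genotypes, by log2 changes of -0.38 ± 0.11 in SUMO-KD (adjusted p = 0.0403) and -0.46 ± 0.11 in wild-type samples (adjusted p = 0.0118). The SUMO-KD call of Cbx5 held on 4 of 12 omissions of an array and was lost on the other omissions, at adjusted p of 0.0526 to 0.159: those of wild-type sham replicates 1 and 3, wild-type ischemia replicate 2, SUMO-KD sham replicates 1 and 3 and all SUMO-KD ischemia arrays. With averaged probe sets Cbx5 was called in neither genotype (-0.10 in SUMO-KD, adjusted p = 0.562, and -0.23 in wild-type, adjusted p = 0.0942).

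The Polycomb readers Cbx6 and Cbx8 were both called lower for the mean response. Cbx6 ran from 2524 to 2996 in SUMO-KD ischemia and from 3040.2 to 3568 in SUMO-KD sham samples (-0.27 ± 0.11, adjusted p = 0.149), and from 2502 to 2638 in wild-type ischemia and from 3042 to 3927 in wild-type sham samples (-0.43 ± 0.11, adjusted p = 0.0189). The groups were apart in both genotypes. Its wild-type call was lost without replicate 1 or 3 of either wild-type group (adjusted p of 0.0543 to 0.0752). The mean response of Cbx8 was -0.45 (adjusted p = 0.0127), with 48.7, 56.4 and 71.6 in SUMO-KD ischemia against 99.4, 78.8 and 86.0 in SUMO-KD sham samples. It had 38.1, 62.3 and 25.4 in wild-type ischemia against 68.9, 65.7 and 74.2 in wild-type sham samples. With averaged probe sets that mean response was -0.23 (adjusted p = 0.0697). Cbx2, Cbx3 and Cbx7 were not called. Another 4 probe sets list Cbx3 together with its pseudogene Cbx3-ps5 and were not used.

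Chd1, an ATP-driven remodeler that binds H3K4 methylation at transcribed genes, was the gene called higher in both genotypes. It had 217, 148 and 222 in SUMO-KD ischemia and 76.1, 88.6 and 83.1 in SUMO-KD sham samples. It had 182, 220.3 and 166 in wild-type ischemia and 78.1, 102 and 79.2 in wild-type sham samples. Every ischemia array was above every sham array. Chd1 rose by 0.98 ± 0.15 in SUMO-KD (adjusted p = 0.00142) and 0.90 ± 0.15 in wild-type samples (adjusted p = 0.00151). Chd7, the remodeler mutated in human CHARGE syndrome, had 178, 229 and 234 in SUMO-KD ischemia and 216, 221 and 211 in SUMO-KD sham samples, and 262, 252 and 284 in wild-type ischemia and 155, 189.7 and 209 in wild-type sham samples. Its log2 change was -0.02 ± 0.12 in SUMO-KD (adjusted p = 0.946) and 0.47 ± 0.12 in wild-type samples (adjusted p = 0.0173). The wild-type groups were apart and the SUMO-KD groups overlapped. The call was lost without wild-type sham replicate 1 or wild-type ischemia replicate 3 (adjusted p of 0.0601 and 0.0717). Chd1l, a remodeler active in DNA repair, changed by -0.10 ± 0.08 in SUMO-KD (adjusted p = 0.543) and by -0.33 ± 0.08 in wild-type samples (adjusted p = 0.0167). Omission of replicate 2 of either wild-type group ended that call (adjusted p of 0.0559 and 0.0563).

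Of the 12 Smarc genes, 1 rose and 1 fell in SUMO-KD samples, and 0 rose and 3 fell in wild-type samples. For the mean response 1 was called higher and 5 lower. Smarca4, the motor BRG1 of the SWI/SNF complex, read 1532, 1299 and 1516 in SUMO-KD ischemia and 1967, 1738 and 1770.4 in SUMO-KD sham samples. It read 1331, 1262 and 1203 in wild-type ischemia and 1669.9, 1629 and 1699.9 in wild-type sham samples. Ischemia was below sham on all arrays, with log2 changes of -0.33 ± 0.09 in SUMO-KD (adjusted p = 0.0397) and -0.39 ± 0.09 in wild-type samples (adjusted p = 0.012). The SUMO-KD call of Smarca4 held on 4 of 12 omissions. It was lost, at adjusted p of 0.0539 to 0.158, without wild-type sham replicate 1 or 3, wild-type ischemia replicate 2, any 1 SUMO-KD sham array or SUMO-KD ischemia replicate 2 or 3. It was also lost with averaged probe sets (-0.21, adjusted p = 0.192) and with arrays centred on their medians (-0.36, adjusted p = 0.0702).

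Smarce1, the BAF57 subunit, ran from 344 to 426 in SUMO-KD ischemia and from 468 to 502 in SUMO-KD sham samples (-0.30 ± 0.10, adjusted p = 0.0787). It ran from 319 to 377 in wild-type ischemia and from 452 to 477 in wild-type sham samples (-0.41 ± 0.10, adjusted p = 0.0138). Smarcad1, a remodeler that helps restore heterochromatin after replication, changed by -0.39 ± 0.12 in SUMO-KD (adjusted p = 0.0597) and -0.51 ± 0.12 in wild-type samples (adjusted p = 0.0118). For both genes the ischemia and sham arrays did not overlap in either genotype. The wild-type call of Smarce1 was lost without replicate 1 of either wild-type group (adjusted p of 0.0516 and 0.0546), and with the mean of its probe sets (-0.11, adjusted p = 0.595). That of Smarcad1 was lost with the mean of its probe sets (-0.27, adjusted p = 0.0534). The core subunits Smarcc1 (-0.33, adjusted p = 0.0117) and Smarcd2 (-0.30, adjusted p = 0.032) were called for the mean response, and the Smarcd2 call was lost in 8 of 12 omissions (adjusted p of 0.0502 to 0.0788). Those were replicates 1 and 2 of SUMO-KD ischemia, 1 and 3 of SUMO-KD sham, every wild-type ischemia array and replicate 3 of wild-type sham. Smarca5, the motor SNF2H of the ISWI complexes, was higher after ischemia. It had 1257, 1582 and 1228 in SUMO-KD ischemia and 866, 1083 and 969 in SUMO-KD sham samples (0.46 ± 0.12, adjusted p = 0.0286), and 1208, 1178 and 1368 in wild-type ischemia and 1085, 1002 and 979 in wild-type sham samples (0.28 ± 0.12, adjusted p = 0.128). Ischemia exceeded sham on every array of both genotypes. On omission of SUMO-KD sham replicate 1 or 3, or of SUMO-KD ischemia replicate 2, the SUMO-KD call was lost (adjusted p of 0.0749 to 0.113), and with the mean of its probe sets (0.23, adjusted p = 0.336).

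**Figure D3:**
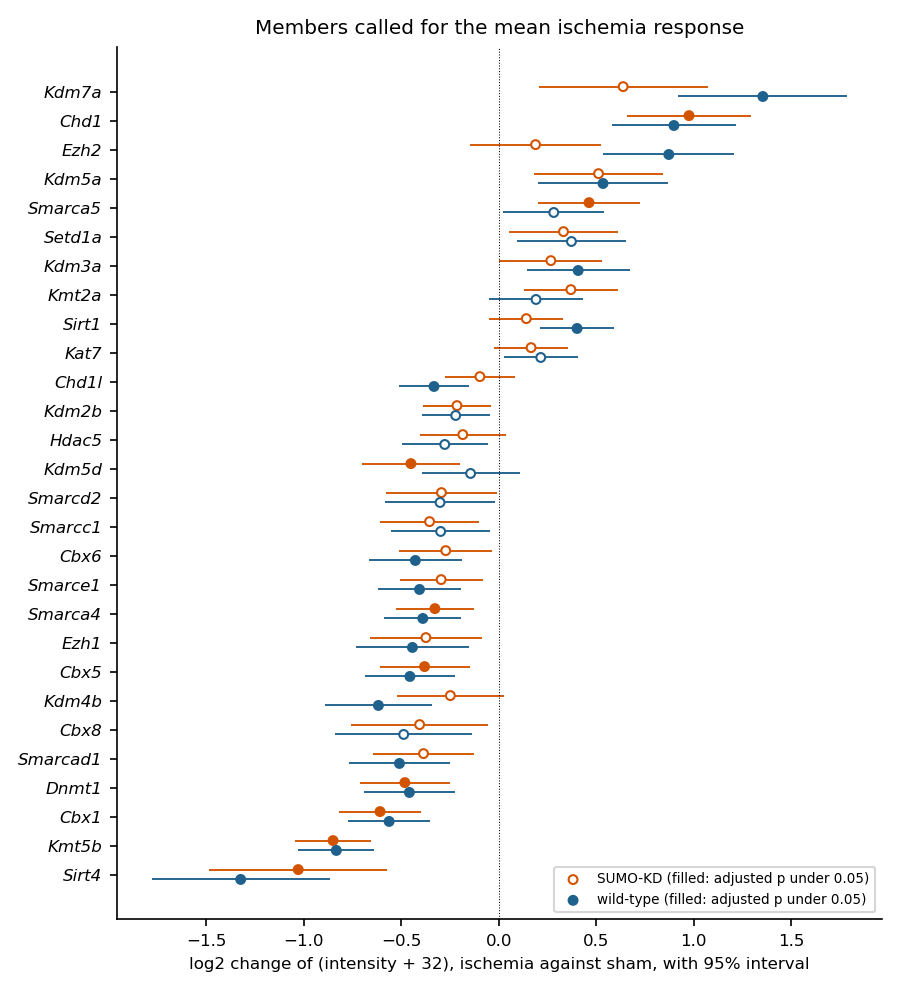
Log2 change of (intensity + 32) with ischemia, with its 95% interval, for the 28 genes called for the mean response over both genotypes, in SUMO-KD (orange) and wild-type samples (blue); filled points were called within that genotype. For 20 of the 28 genes the change was larger in size in wild-type samples. This was not counted over all genes, whose median size of change was 0.16 in SUMO-KD and 0.19 in wild-type samples. For the 74 genes those medians were 0.21 and 0.22.

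Of the 45 genes called in none of these tests, 24 had overlapping ischemia and sham arrays in both genotypes. Their log2 changes ran from -0.27 to 0.26 in SUMO-KD and from -0.39 to 0.24 in wild-type samples. They included the motor Chd4 of the NuRD complex, the class I deacetylase Hdac3, the H3K4 demethylase Kdm1a, the SWI/SNF core subunit Smarcb1 and the mainly cytoplasmic sirtuin Sirt2. The arrays of 13 genes stood apart in SUMO-KD samples alone. Among these was the SWI/SNF motor Smarca2 (BRM), which averaged 1054 ± 129 in SUMO-KD ischemia and 1336 ± 84.8 in SUMO-KD sham samples (-0.34 ± 0.13, adjusted p = 0.133), and 1111 ± 176 in wild-type ischemia and 1122 ± 104 in wild-type sham samples (-0.02 ± 0.13, adjusted p = 0.935; SD, n = 3 each). The acetyltransferase Kat6b changed by -0.35 ± 0.12 in SUMO-KD (adjusted p = 0.103) and -0.04 ± 0.12 in wild-type samples (adjusted p = 0.867). Hdac2, a class I deacetylase known to restrain memory formation in mice, changed by -0.28 ± 0.11 in SUMO-KD (adjusted p = 0.131) and -0.06 ± 0.11 in wild-type samples (adjusted p = 0.781). None of these changes passed the test. In wild-type samples alone 7 genes stood apart, among them the acetyltransferase Kat2b (PCAF), with 676, 872 and 879 in wild-type ischemia and 1006, 1089 and 1034 in wild-type sham samples (-0.36 ± 0.12, adjusted p = 0.0655). In SUMO-KD samples Kat2b changed by -0.12 ± 0.12 (adjusted p = 0.618). Chd6 was the 1 uncalled gene whose arrays stood apart in both genotypes, with log2 changes of -0.20 in SUMO-KD (adjusted p = 0.144) and -0.10 in wild-type samples (adjusted p = 0.403). Over all genes, called or not, 29.8% stood apart in SUMO-KD and 35.1% in wild-type samples. The shares among uncalled genes alone were not counted.

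The genotypes were compared next. SUMO-KD minus wild-type, 0 of the 74 genes were called after ischemia (all genes, 1.56%) and 0 after sham surgery (all genes, 2.1%), and 0 for the difference of the ischemia responses (all genes, 0.0161%). Of all genes, 1% were higher and 0.557% lower in SUMO-KD after ischemia, and 1.5% higher and 0.597% lower after sham surgery. At an unadjusted p under 0.05, limma had 9 genes after ischemia, 7 after sham surgery and 4 for the difference of responses. Over all 12394 genes these numbers were 1915, 1758 and 768. A call that was missed does not show equal levels. The 95% interval of a genotype difference reached 0.259 on either side for the median gene and 0.538 for the widest, Kmt2d, on the log2 scale. For the difference of responses these half-widths were 0.367 and 0.76.

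After ischemia the smallest adjusted p belonged to Kdm7a, at -0.81 (95% interval -1.24 to -0.37, adjusted p = 0.0753), followed by Ezh2 at -0.61 (-0.94 to -0.27, adjusted p = 0.0834). For both, the 3 SUMO-KD ischemia arrays were below the 3 wild-type ischemia arrays. Without SUMO-KD ischemia replicate 2, Kdm7a was called (-0.99, adjusted p = 0.0423). Hdac6, a mostly cytoplasmic deacetylase of tubulin, was higher in SUMO-KD ischemia, at 464, 449 and 448, than in wild-type ischemia, at 337, 298 and 358 (0.42, interval 0.19 to 0.66, adjusted p = 0.0881). Its sham arrays read 476, 358 and 430.1 in SUMO-KD and 308, 333 and 355 in wild-type samples (0.31, interval 0.07 to 0.55, not called). On the arrays Hdac6 thus stood higher in SUMO-KD after either surgery, without a call. Smarcd3, the SWI/SNF subunit BAF60c, did too. It had 749, 592 and 617 in SUMO-KD ischemia and 514, 471 and 411 in wild-type ischemia samples (0.46, interval 0.17 to 0.75, adjusted p = 0.124). After sham surgery it had 940.5, 723 and 691 in SUMO-KD and 543, 513 and 554 in wild-type samples (0.51, interval 0.22 to 0.80, adjusted p = 0.0792).

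The genes with the smallest p for the difference of responses, SUMO-KD minus wild-type, were Ezh2 (-0.68, interval -1.16 to -0.21, adjusted p = 0.718), Chd7 (-0.49, interval -0.85 to -0.13, adjusted p = 0.718) and Kdm7a (-0.72, interval -1.33 to -0.10, adjusted p = 0.796). All 3 rose in wild-type samples and had overlapping groups in SUMO-KD samples. In these data the differences of response did not pass the adjustment over all genes. Kmt2d, an H3K4 methyltransferase of enhancers, had a difference of 0.89 (interval half-width 0.76, adjusted p = 0.796) on dim values. It had 48.7, 64.5 and 13.3 in SUMO-KD ischemia and 10.3, 10.5 and 9.20 in SUMO-KD sham samples, and 8.30, 18.7 and 12.4 in wild-type ischemia and 9.10, 33.1 and 12.9 in wild-type sham samples. Kmt2d, Cbx7, Dnmt3l and Hdac9 were the 4 genes with a mean under the offset of 32. Arrays of the genotypes did not overlap for 7 higher and 7 lower genes in SUMO-KD after ischemia (all genes, 11.3% higher and 8.9% lower). After sham surgery they did not overlap for 10 higher and 6 lower genes (all genes, 11% higher and 9.67% lower).

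**Figure D4:**
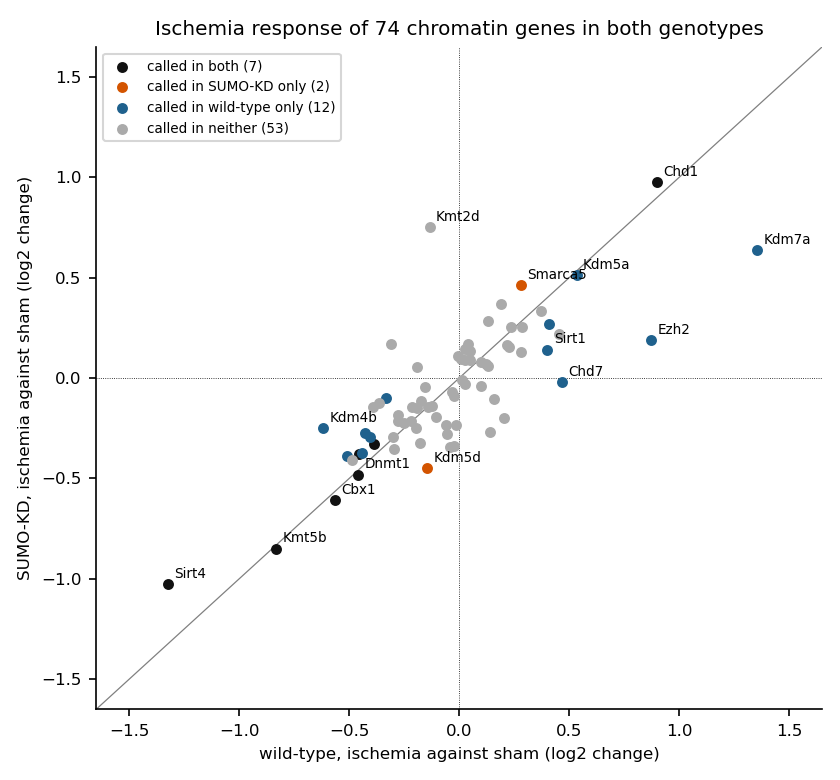
Log2 change with ischemia in SUMO-KD (vertical) against wild-type samples (horizontal) for the 74 genes, coloured by the genotype in which a gene was called, with the line of equal change. The sign was shared by 63 of the 74 genes (85.1%, against 72.5% of all genes), and Kdm7a, Ezh2, Chd7 and Kmt2d lie farthest from the line among the labelled genes.

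More than 1 probe set was present for 38 of the 74 genes, and the one with the highest mean was used, so 56 probe sets were left to compare. In SUMO-KD samples 39 of the 56 changed in the direction of the one used, and 6 were called over all probe sets. In wild-type samples 41 shared the direction and 9 were called. Kmt5b was the gene whose probe sets were called in opposite directions. The one used above fell, while its second probe set had 214, 203 and 206 in SUMO-KD ischemia and 121, 133 and 145 in SUMO-KD sham samples (0.54, adjusted p = 0.0127). In wild-type samples it had 194, 185 and 219 after ischemia and 120.1, 104 and 150.4 after sham surgery (0.57, adjusted p = 0.00588). The ischemia arrays of this second probe set exceeded the sham arrays in both genotypes, so the direction of Kmt5b depends on the probe set, and with the mean of all 4 Kmt5b probe sets, of which the other two were dim and not called, the wild-type change was -0.01 (adjusted p = 0.978). Which transcripts the probe sets detect was not worked out here.

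Dnmt3a had 5 probe sets. The one used was not called, and the second one plotted here rose in both genotypes. It had 315, 333 and 171 in SUMO-KD ischemia and 92.7, 174 and 140.2 in SUMO-KD sham samples (0.85, adjusted p = 0.041), which overlapped. In wild-type samples it had 328, 293 and 292 after ischemia and 141, 171 and 119 after sham surgery (0.95, adjusted p = 0.016), which did not. Another, dim one was also called, in SUMO-KD (0.80, adjusted p = 0.0349) and wild-type samples (0.89, adjusted p = 0.0135). Yet another changed by 0.58 in SUMO-KD (adjusted p = 0.118) and rose by 0.83 in wild-type samples (adjusted p = 0.02). The last of the 5 changed by -0.15 in SUMO-KD and 0.02 in wild-type samples. Cbx1 and Cbx5 each had a second probe set that fell in both genotypes, that of Cbx1 with changes of -0.42 in SUMO-KD (adjusted p = 0.0213) and -0.54 in wild-type samples (adjusted p = 0.0034). The second Cbx5 probe set changed by -0.34 in SUMO-KD (adjusted p = 0.0264) and -0.54 in wild-type samples (adjusted p = 0.0012). After ischemia it was also higher in SUMO-KD than in wild-type samples (0.57, adjusted p = 0.00925). After sham surgery that difference was 0.36 (adjusted p = 0.0602), with 668, 688 and 752 in SUMO-KD and 525, 533 and 557 in wild-type samples. The difference of responses of this probe set was not called (0.20, adjusted p = 0.895). A second probe set of Hdac11, a deacylase of class IV, had 614.4, 442.3 and 618.2 in SUMO-KD ischemia and 416.5, 383.5 and 374.1 in SUMO-KD sham samples and was called higher (0.47, adjusted p = 0.0454). In wild-type samples its groups overlapped (-0.15, adjusted p = 0.495). Kdm6a, an H3K27 demethylase on the X chromosome, fell in wild-type samples by its second probe set (-0.57, adjusted p = 0.00539). A dim probe set of Setd4 was called lower in wild-type samples (-0.51, adjusted p = 0.0173). The Setd4 probe set used changed by 0.28 there (adjusted p = 0.119).

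**Figure D5:**
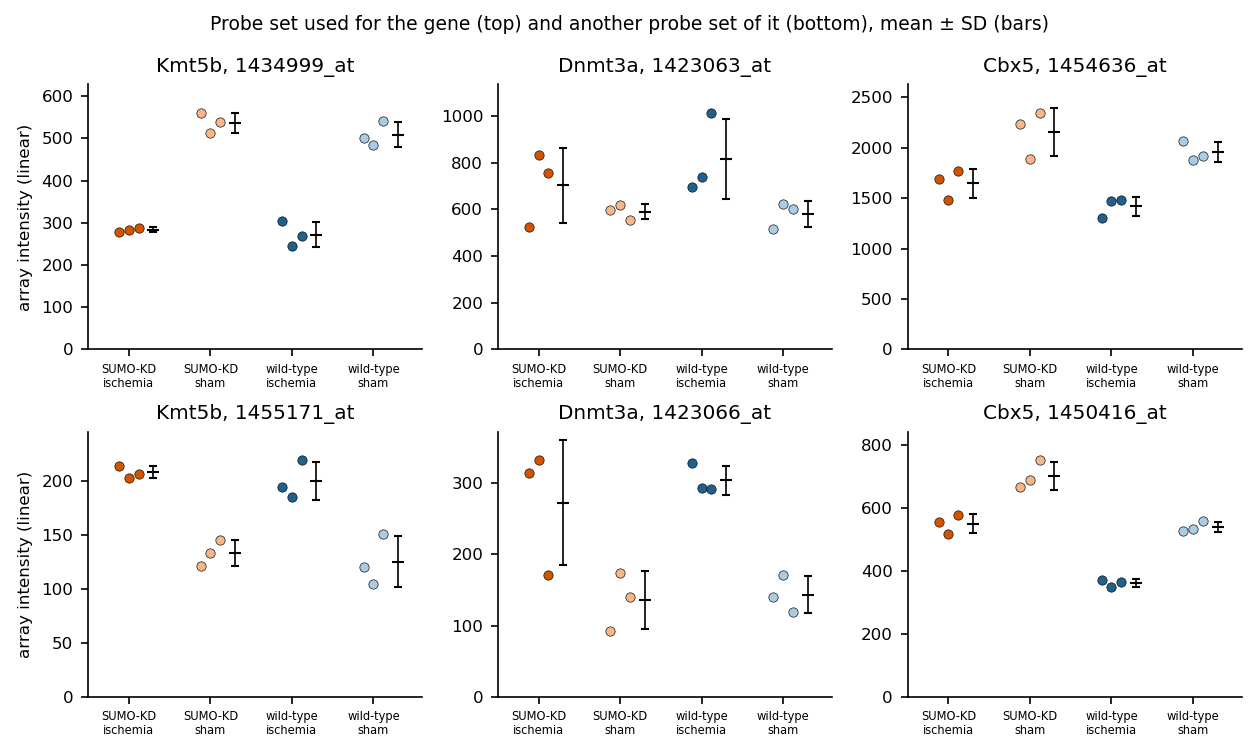
Linear array intensity of the probe set used (top) and another probe set (bottom) of Kmt5b, Dnmt3a and Cbx5 on each array, with the mean and SD (bars), for SUMO-KD ischemia, SUMO-KD sham, wild-type ischemia and wild-type sham samples. The Kmt5b probe sets move in opposite directions with ischemia, those of Cbx5 in the same direction.

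Genes that work with these families were counted from 8 lists. Each list is to be read beside the shares over all genes. Those were 6.08% called higher and 4.62% lower in SUMO-KD samples, and 9.59% and 8.88% in wild-type samples. The median change of all genes was -0.02 in SUMO-KD and -0.04 in wild-type samples. Among 18 measured of 22 listed partners of histone deacetylases in repressor complexes, 4 rose and 0 fell in SUMO-KD samples, and 7 rose and 1 fell in wild-type samples. The list's median change was 0.16 in SUMO-KD and 0.26 in wild-type samples. Sin3b, a scaffold of the Sin3 complex, rose by 0.92 in SUMO-KD (adjusted p = 0.00317) and 1.27 in wild-type samples (adjusted p = 0.000243), a result that turned to -0.19 and -0.13 without probe sets marked as shared. Rest, the repressor of neuronal genes that recruits these complexes, averaged 222 ± 39.4 in SUMO-KD ischemia and 127 ± 17.4 in SUMO-KD sham samples, and 288 ± 59.0 in wild-type ischemia and 117 ± 17 in wild-type sham samples (SD, n = 3 each). Its change was 0.67 in SUMO-KD (adjusted p = 0.0181) and 1.09 in wild-type samples (adjusted p = 0.00075). With averaged probe sets its SUMO-KD change was 0.23 (adjusted p = 0.118). Its SUMO-KD call did not hold on omission of SUMO-KD sham replicate 1 or 3 or SUMO-KD ischemia replicate 2 (adjusted p of 0.0559 to 0.0789). Sap30, another subunit of the Sin3 complex, rose by 1.04 in SUMO-KD (adjusted p = 0.00392) and 1.02 in wild-type samples (adjusted p = 0.00272). 

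Among demethylases named otherwise, 9 of 10 listed were measured, of which 2 rose and 0 fell in SUMO-KD samples, against 3 and 1 in wild-type samples. Riox1, a nucleolar oxygenase, rose by 0.75 in SUMO-KD (adjusted p = 0.00389) and 1.18 in wild-type samples (adjusted p = 0.000129). Jmjd1c, a relative of Kdm3a, averaged 2111 ± 318 in SUMO-KD ischemia and 1747 ± 208 in SUMO-KD sham samples, and 3211 ± 63.8 in wild-type ischemia and 1764 ± 148 in wild-type sham samples (SD, n = 3 each). It changed by 0.26 in SUMO-KD (adjusted p = 0.21) and rose by 0.86 in wild-type samples (adjusted p = 0.000742). After ischemia it was lower in SUMO-KD than in wild-type samples (-0.61, adjusted p = 0.0319). That call was lost without any 1 wild-type ischemia array or SUMO-KD ischemia replicate 1 or 3 (adjusted p of 0.082 to 0.138), and with the compared groups alone (0.112). Jmjd6 rose by 0.56 in SUMO-KD (adjusted p = 0.0432) and 0.52 in wild-type samples (adjusted p = 0.0397). Each of these Jmjd6 calls held on 3 of 12 omissions. Without shared probe sets its changes were -0.03 in SUMO-KD (adjusted p = 0.893) and 0.03 in wild-type samples (adjusted p = 0.889).

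Of 26 listed Polycomb partners 21 were measured, and in SUMO-KD samples 2 rose and 1 fell, against 1 and 1 in wild-type samples. Jarid2, a subunit that brings Polycomb repressive complex 2 to DNA, averaged 679 ± 114 in SUMO-KD ischemia and 489.6 ± 21.1 in SUMO-KD sham samples, and 1033 ± 75.2 in wild-type ischemia and 489 ± 30.9 in wild-type sham samples (SD, n = 3 each). It rose by 0.43 in SUMO-KD (adjusted p = 0.0372) and by 1.03 in wild-type samples (adjusted p = 0.000168), and after ischemia it was lower in SUMO-KD than in wild-type samples (-0.59, adjusted p = 0.0308). That genotype call was lost without any 1 wild-type ischemia array or SUMO-KD ischemia replicate 1 or 3 (adjusted p of 0.0515 to 0.0976). It was also lost with averaged probe sets (adjusted p = 0.0635), without shared probe sets (0.11) and with the compared groups alone (0.153). The call of its SUMO-KD response was lost in 7 of 12 omissions (adjusted p of 0.05 to 0.149), those of SUMO-KD ischemia replicates 1 and 2, every SUMO-KD sham array, wild-type ischemia replicate 1 and wild-type sham replicate 3. It was lost as well with 6 of 11 processing alternatives (adjusted p of 0.0557 to 0.109). The difference of responses was not called for Jarid2 (-0.60, adjusted p = 0.567) or Jmjd1c (-0.59, adjusted p = 0.609). Pcgf1, of the same list as Jarid2, changed by -0.11 in SUMO-KD (adjusted p = 0.587) and -0.39 in wild-type samples (adjusted p = 0.0193). The Pcgf1 call was lost without wild-type sham replicate 3 or wild-type ischemia replicate 2 or 3 (adjusted p of 0.0525 to 0.0757).

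Of 14 measured of 19 SWI/SNF partners, 0 rose and 3 fell in SUMO-KD samples, against 1 and 2 in wild-type samples. Actl6a, the BAF53a subunit of dividing cells, changed by 0.12 in SUMO-KD (adjusted p = 0.681) and rose by 0.63 in wild-type samples (adjusted p = 0.0107), a call lost without shared probe sets (0.50, adjusted p = 0.071) and with the compared groups alone (adjusted p = 0.0555). Arid1a changed by -0.34 in SUMO-KD (adjusted p = 0.0183) and -0.35 in wild-type samples (adjusted p = 0.0108). Both Arid1a calls were lost with averaged probe sets (adjusted p of 0.0964 and 0.375) and with the compared groups alone (0.0514 and 0.0564). Brd7 changed by -0.15 in SUMO-KD (adjusted p = 0.416) and -0.33 in wild-type samples (adjusted p = 0.0406). The Brd7 call held on 4 of 12 omissions of an array. Of 15 measured of 20 further ATP-driven remodelers, 1 rose and 3 fell in SUMO-KD samples, against 1 and 3 in wild-type samples. Hells, a remodeler needed for DNA methylation, rose by 0.78 in SUMO-KD (adjusted p = 0.0107) and 0.91 in wild-type samples (adjusted p = 0.00277). Hltf changed by -0.50 in SUMO-KD (adjusted p = 0.0462) and -0.70 in wild-type samples (adjusted p = 0.00587). The SUMO-KD call of Hltf held on 3 of 12 omissions. Shprh changed by -0.69 in SUMO-KD (adjusted p = 0.0114) and -0.50 in wild-type samples (adjusted p = 0.0359). The wild-type call of Shprh held on 8 of 12 omissions. Of 18 measured of 23 other acetyltransferases and bromodomain readers, 2 rose and 0 fell in SUMO-KD samples, against 4 and 3 in wild-type samples. Cdyl, a reader of repressive methylation and partner of Rest, changed by 0.15 in SUMO-KD (adjusted p = 0.384) and rose by 0.71 in wild-type samples (adjusted p = 0.000449). Brd8 changed by -0.20 in SUMO-KD (adjusted p = 0.358) and -0.61 in wild-type samples (adjusted p = 0.00459). Without shared probe sets the wild-type change of Brd8 was -0.20 (adjusted p = 0.248). Brd2 rose by 0.49 in SUMO-KD (adjusted p = 0.0482) and 0.58 in wild-type samples (adjusted p = 0.0158). The SUMO-KD call of Brd2 held on 2 of 12 omissions. Of 15 measured of 28 other methyltransferases and their cofactors, 1 rose and 1 fell in SUMO-KD samples, against 1 and 2 in wild-type samples. Prmt6, an arginine methyltransferase, rose by 0.75 in SUMO-KD (adjusted p = 0.0166) and 0.95 in wild-type samples (adjusted p = 0.00284). The SUMO-KD call of Prmt6 was lost without replicate 2 or 3 of either SUMO-KD group (adjusted p of 0.057 to 0.0685). Men1 changed by -0.36 in SUMO-KD (adjusted p = 0.0403) and -0.40 in wild-type samples (adjusted p = 0.0167). These Men1 calls held on 3 and 9 of 12 omissions, respectively. Dpy30 changed by -0.15 in SUMO-KD (adjusted p = 0.407) and -0.34 in wild-type samples (adjusted p = 0.0299). The Dpy30 call held on 7 of 12 omissions. Of 6 measured of 11 further DNA methylation genes, 0 were called in SUMO-KD samples. Mbd4, a repair glycosylase, fell in wild-type samples (-0.59, adjusted p = 0.0158). That call was lost without wild-type sham replicate 1 or 3 or wild-type ischemia replicate 1 (adjusted p of 0.0564 to 0.064).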

How the data were processed

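RNA of 12 samples was measured on Affymetrix arrays. The deposited values were linear intensity values per probe set. Partek 6.6 and RMA are named per the submitters' processing notes, without the step each made; the deposited intensity values were not on RMA's log2 scale, and the trimmed mean (2% taken off at either end) was 500.2 on every array. Of 22690 probe sets, 20393 had 1 gene symbol; the one with the highest mean log2 value was used per gene. The plan had assumed linear values, so log2(intensity + 32) was tested as planned. A group-means model was fitted over all genes (lmFit and eBayes of limma 3.58.1, R 4.3.3), with two-sided tests, and the procedure was tested on simulated data. The number of arrays limits the precision, and no detection call was used.

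The 74 genes, the lists and the tests were chosen with earlier results of these data known. Named in full were genes called for the mean response with a change of at least 0.5 (log2), or called in 1 genotype. Also named were those with the 3 smallest interaction p-values and up to 3 genes of each partner list. The latter were the genes called in wild-type samples with the largest changes there. Alternatives were other offsets (16 and 64), other uses of probe sets, a filter on dim genes, median centring, quantile normalization, other limma settings, compared groups alone, a replicate block, and omission of each array. The files name no genome build, so coordinates are given only for promoter windows of the RefSeq table (GRCm38.p6).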

Additional observations from a re-analysis of the deposited data

How the results depend on the processing

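The compared groups alone could not be used for the mean response or the difference of responses, and genes with shared probe sets alone had no value without those. In wild-type samples, the number of chromatin genes called lower with ischemia was 12, with 7 for averaged probe sets, 8 for the compared groups alone or without shared probe sets, 14 with dim genes left out or quantile normalization, and 15 with median centring. Over all genes 1101 were called lower there, and 1004 with averaged probe sets. The number was 663 for the compared groups alone and 853 without shared probe sets. It was 1269 with dim genes left out, 1331 with quantile normalization and 1386 with median centring. The compared groups alone ended the wild-type calls of Cbx6, Chd1l, Dnmt1, Ezh1 and Kdm3a (adjusted p of 0.0541 to 0.0842) and the SUMO-KD calls of Cbx5, Smarca4 and Smarca5 (0.0822 to 0.107). With the replicate block the genotype call of Jarid2 after ischemia was lost (adjusted p = 0.0554), as were the SUMO-KD response of Jarid2 (0.0568) and the mean response of Kat7 (0.0575). The same block ended the SUMO-KD calls of Hltf (0.0517), Men1 (0.0532) and Jmjd6 (0.0533). In SUMO-KD samples, 2 were called higher: this was 4 with an offset of 64, the mean of probe sets, trend and robust settings or array weights, 5 with dim genes left out or the replicate block, and 1 with the compared groups alone. All genes called higher there numbered 754 in the main fit and 579 to 1043 under those settings. The 7 called lower in SUMO-KD samples were 2 with the mean of probe sets (all genes, 573 and 499). Between genotypes after ischemia, 1 gene was called higher with array weights (Hdac6, adjusted p = 0.0495) and 1 lower with an offset of 64 (Kdm7a, adjusted p = 0.0481). After sham surgery 1 gene, Smarcd3, was called higher with the replicate block (adjusted p = 0.0376), trend and robust settings (0.0461) or array weights (0.041).

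Omission of 1 array gave 4 to 9 genes higher and 9 to 12 lower in wild-type ischemia, 1 to 3 higher and 4 to 8 lower in SUMO-KD ischemia, 8 to 13 higher and 16 to 19 lower for the mean response, and 0 to 1 lower between genotypes after ischemia. The 4 came without wild-type sham replicate 1, and without SUMO-KD ischemia replicate 2 the SUMO-KD counts were 1 higher and 4 lower. Over all genes omission gave 832 to 1206 higher and 693 to 1101 lower in wild-type ischemia. In SUMO-KD ischemia it gave 475 to 790 higher and 269 to 615 lower, and for the mean response 1368 to 1643 and 1316 to 1678. Of 18 same-numbered pairs of samples, 5 correlated above 0.1 (range -0.166 to 0.276). Differently numbered pairs were not computed for comparison, so whether replicate numbers pair the samples cannot be decided from this. With the replicate block, the wild-type response had 8 higher and 13 lower genes, and the SUMO-KD response 5 and 8. Median centring moved the split of all called genes in wild-type samples to 1001 higher and 1386 lower, against 1188 and 1101.

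Directions turned in 8 cases. Without probe sets marked as shared, the SUMO-KD response of Cbx1 was 0.020, of Brd2 -0.045, of Jmjd6 -0.034 and of Sin3b -0.19. The wild-type response of Sin3b was -0.13 and the Sumo3 difference after sham surgery 0.049 under the same alternative. With the mean of probe sets, Kmt5b changed by 0.090 in SUMO-KD samples and 0.042 for the mean response. The cause was not tested.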
